A study of Mus musculus with 6 samples.

Results

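Potassium channel genes are described here as all probe sets of a mouse expression array whose single gene symbol starts with Kcn. The rule used names only, and it found 167 probe sets of 84 genes among 45037 probe sets that were not array controls. Of the 84 genes, 46 had more than 1 probe set. The arrays measured whole brains of neonatal C57BL/6 mice (C57BL/6J in the protocol) at postnatal day 6, with 1 array holding RNA pooled from 6 mice. The mice had received an intraperitoneal injection at postnatal day 2, either testosterone propionate (TP, a slowly released form of testosterone, 1 mg per mouse in 20 µL sesame oil) or the same volume of oil without TP. Females gave 2 TP arrays and 2 oil (vehicle) arrays, and males gave 1 array of each kind. All groups share 1 strain and an injection of oil, so no array shows an uninjected brain. The later array of each female pair is called a replica, with no statement of whether new mice were pooled, so p-values measure the spread between arrays and that spread may be technical.

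Potassium channels let potassium leave or, for some, enter a cell along its electrochemical gradient. In neurons they set the resting potential, end the action potential and limit firing rate, and in astrocytes they clear potassium released by active neurons. Voltage-gated and calcium-activated channels open on depolarization or a calcium rise, inward rectifiers and tandem-pore-domain channels carry resting current, and auxiliary subunits change where and how the pore subunits work. Many of these genes change in level as the postnatal brain matures.

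Promoter sequence is shown for the 3 genes whose values the description below returns to most. They are Kcnma1 and Kcnq1ot1, whose TP arrays lay above the vehicle arrays on several probe sets, and Kcnj13, which had the largest negative difference among separated genes above the dim line. Each line gives the 120 bases just before the RefSeq transcript start, read 5′ to 3′ on the gene's strand, in GRCm38.p6. Capitals mark GGGCGG (the GC box), TATAAA (the TATA box) or AGAACA (an androgen response element half-site) on either strand. The windows are chr14:24004206-24004325 on the minus strand for Kcnma1, chr7:143296548-143296667 on the minus strand for Kcnq1ot1 and chr1:87394730-87394849 on the minus strand for Kcnj13.
Kcnma1: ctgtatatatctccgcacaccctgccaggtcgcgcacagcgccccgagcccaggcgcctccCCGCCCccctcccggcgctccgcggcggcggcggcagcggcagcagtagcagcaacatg
Kcnq1ot1: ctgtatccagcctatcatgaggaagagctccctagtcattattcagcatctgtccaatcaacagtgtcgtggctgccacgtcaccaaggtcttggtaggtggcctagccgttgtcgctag
Kcnj13: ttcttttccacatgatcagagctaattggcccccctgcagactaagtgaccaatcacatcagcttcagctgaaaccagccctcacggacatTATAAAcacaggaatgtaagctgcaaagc
The Kcnma1 window had a GC content of 74.2% with 15 CpG and 1 GC box. The Kcnq1ot1 window had 52.5% GC and 4 CpG with none of these letters. The Kcnj13 window had 46.7% GC and 1 CpG, with 1 TATA box near its end.

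RefSeq windows of 300 bases (250 before to 50 after a start) were at hand for 64 of the 84 genes, 89 windows in all. AGAACA stood in 16 of the 89 (17.98%), against 19.0% of all 32851 windows. The whole androgen response element (AGAACA, any 3 bases, TGTTCT) was in 0 of the 89 and 3 of all windows. The estrogen response element (GGTCA, any 3 bases, TGACC) was in 0 of the 89 and 23 of all. GGGCGG stood in 43 of the 89 (48.3%) against 35.7% of all windows, and TATAAA in 5 (5.62%) against 13.6%. Potassium channel windows had a median GC content of 58.0% and a median of 9 CpG, against 52.7% and 7 over all windows. Both strands were searched, every whole androgen response element also holds AGAACA, and a match is a run of letters rather than a binding site.

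The array labelled male TP stood apart from the others, and its Xist signal went against its label. Xist, the RNA of the inactive X chromosome, read 12.81 and 12.83 on the female TP arrays, 12.71 and 12.61 on the female vehicle arrays and 5.29 on the male vehicle array, but 10.45 on the array labelled male TP. Eif2s3y, a Y-linked gene, read 9.12 on that array and 9.16 on the male vehicle array, against 2.84 to 3.09 on the female arrays. The same array read 8.55 for Gh and 7.86 for Pomc, both pituitary hormones, against 5.37 to 5.75 and 6.45 to 6.57 on the others. It read 7.46 for Hoxa5, a hindbrain and spinal cord gene, against 8.30 to 8.47, and 7.70 for Mobp, an oligodendrocyte gene, against 8.197 to 8.49. These genes come from longer lists, and not every list member went the same way. The pituitary gene Fshb read 2.68 on this array, below the others. Hoxc6 (5.64) and the oligodendrocyte gene Olig2 (7.95) read above the others. Given these readings, differences for the main genes and classes are also given for the female arrays alone, and sex differences of named genes without this array. The difference of the TP effect between the sexes cannot be had without it.

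All values are log2 expression values after RMA, and a difference of 1 is a 2-fold change. Array medians lay between 5.69 and 5.74. A probe set is called dim where its mean over the 6 arrays was below 4.98, the 40th percentile of all probe sets. Of the potassium channel probe sets 114 were above this, from 65 genes, and the other 19 genes were dim on their brightest probe set. A gene is spoken of by its brightest probe set unless another is named. Closest below the line were Kcnj5 at 4.97, Kcnk15 at 4.96 and Kcnq1 at 4.91, and closest above it were a Kcnk10 probe set at 5.02, a Kcnab3 probe set at 5.04 and a Kcnma1 probe set at 5.07.

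Every subfamily had at least 1 probe set above the dim line at postnatal day 6. Levels belong to single probe sets and have no order between genes, so they are given only with their spread over the 6 arrays. Among voltage-gated pore subunits, Kcnd2 (Kv4.2, which carries A-type current in dendrites) read 10.61 ± 0.08 (SD, n = 6) and Kcnq3 (part of the M-current channel) read 10.12 ± 0.04. Kcna1 (Kv1.1, an axonal channel) read 8.39 ± 0.04. Kcnc1 (Kv3.1, found in fast-spiking neurons) read 8.42 ± 0.08 and Kcnh2 (the ERG channel) 7.60 ± 0.15. The modifier subunits, which form no channel alone, included Kcnf1 at 8.13 ± 0.08, Kcns2 at 8.08 ± 0.05, Kcnv1 at 7.87 ± 0.11 and Kcng1 at 7.07 ± 0.06.

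Channels opened by ions inside the cell were also above the dim line. Kcnma1, the pore subunit of the large-conductance BK channel, read 8.28 ± 0.24 (SD, n = 6), and Kcnn2, the small-conductance SK2 channel, read 7.16 ± 0.10. Kcnt2, a sodium-activated channel, read 7.80 ± 0.11, and Kcnu1, known from sperm, read 7.64 ± 0.06. Kcnk1, a tandem-pore channel, read 9.95 ± 0.09, and Kcnj10 (Kir4.1, the main inward rectifier of astrocytes) read 8.75 ± 0.07. The auxiliary subunits Kcnmb4 (the neuronal BK beta subunit), Kcnip1 (a Kv4 partner), Kcnab1 (a Kv1 partner) and Kcne1l read 9.91 ± 0.07, 9.21 ± 0.06, 8.05 ± 0.07 and 7.90 ± 0.08. Of these brightest probe sets, Kcnma1 had the widest spread over the 6 arrays.

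TP was compared with vehicle over the 6 arrays with sex as a second term. No potassium channel probe set passed an adjusted p of 0.05 in limma, where 0.00888% of all probe sets did, and the lowest adjusted p among the members was 0.191. At an unadjusted p under 0.05 there were 25 of 167 (15.0%, against 12.3% of all probe sets). Of these, 10 had higher TP values, where 5.98% of all probe sets did, and 15 had lower TP values, where 6.28% did. All 10 with higher TP values were above the dim line, and 4 belonged to Kcnma1 and 3 to Kcnq1ot1. Only 5 of the 15 with lower TP values were above it. Across the whole array 1908 of 2692 with higher and 1468 of 2828 with lower TP values were above it. Over all 167 probe sets 64 differences were positive and 103 negative, with a median of -0.04 against -0.02 over all probe sets. A whole brain gives 1 value per gene, so fewer cells of a type and less RNA per cell cannot be told apart.

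**Figure D1:**
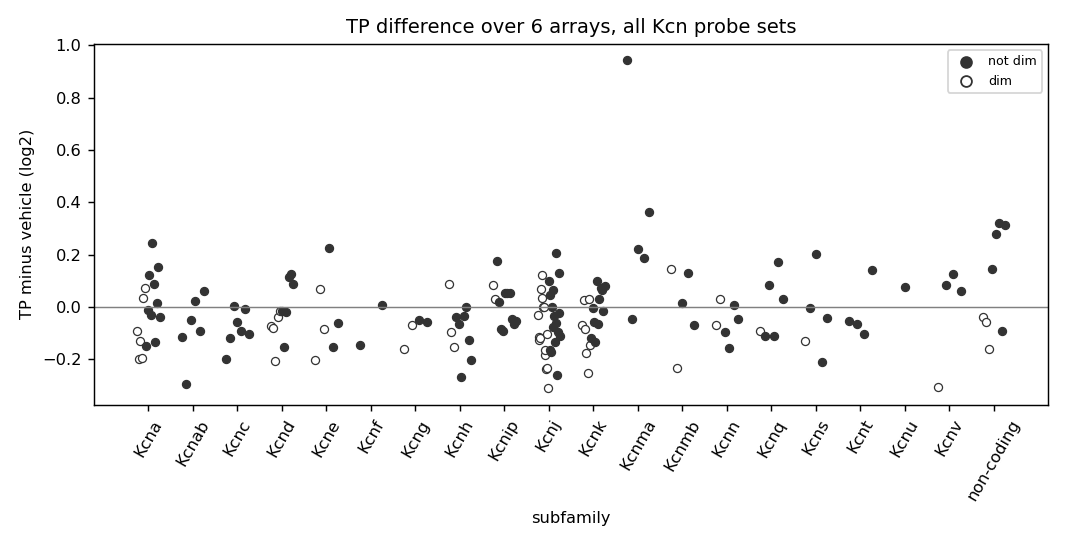
Difference between TP and vehicle (log2, over the 6 arrays with sex as a second term) for every potassium channel probe set, by subfamily, with dim probe sets marked apart. Most points lie near 0, and 4 of the 5 Kcnma1 points lie above it, up to 0.94.

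Kcnma1 had the lowest adjusted p among the members and 4 separated probe sets. Its product forms the pore of the BK channel, which opens with voltage and calcium and shapes the end of the action potential. Probe set 1424848_at read 8.36 and 8.38 on the female TP arrays and 8.63 on the male TP array, against 7.98 and 8.02 on the female vehicle arrays and 8.29 on the male vehicle array. Every TP array lay above every vehicle array, though the lowest TP array was close to the male vehicle array, and within each treatment the male array was the highest. The TP mean was 8.46 ± 0.15 (SD, n = 3) and the vehicle mean 8.10 ± 0.17, a difference of 0.36 (SE 0.06, fold 1.28, adjusted p = 0.197 in limma). The difference was 0.37 in females and 0.34 in males.

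Probe set 1457018_at of Kcnma1 had the larger difference at a lower signal. It read 5.80 and 5.25 on the female TP arrays and 5.57 on the male TP array, against 4.82 and 4.53 on the female vehicle arrays and 4.44 on the male vehicle array. The groups did not overlap, and the lowest TP array stood above the highest vehicle array. The difference was 0.94 (SE 0.15, fold 1.92, adjusted p = 0.191 in limma), with 0.85 in females and 1.13 in males. Its mean was 5.07, close to the dim line, and all 3 vehicle arrays read below that line.

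The other Kcnma1 probe sets differed less. On 1440728_at the TP arrays read 6.93, 6.87 and 6.77 (female, female, male) and the vehicle arrays 6.68, 6.60 and 6.63, a difference of 0.22 (SE 0.07, adjusted p = 0.295). On 1425987_a_at they read 7.92, 7.94 and 8.003 against 7.74, 7.71 and 7.85, a difference of 0.19 (SE 0.06, adjusted p = 0.314). On both the TP and vehicle arrays did not overlap. The fifth, 1428948_at, read 6.74, 6.49 and 6.62 against 6.55, 6.72 and 6.72. There the arrays overlapped, with a difference of -0.05 (SE 0.09, adjusted p = 0.863). Which transcript ends each probe set reads was not analysed here.

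The call for Kcnma1 turned on the variance model. With limma's spread estimate made to depend on signal, 1424848_at had an adjusted p of 0.0133 and 1457018_at of 0.0148, and no other member passed under any alternative. The share of all probe sets passing under that setting is not given here, so these calls have no background share beside them. Over its 11 alternatives 1424848_at kept a difference of 0.35 to 0.37, with adjusted p from 0.0133 to 0.525. Over its 10 alternatives 1457018_at kept 0.81 to 1.12, with adjusted p from 0.0148 to 0.525. Without the male arrays the adjusted p was 0.525 for both.

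**Figure D2:**
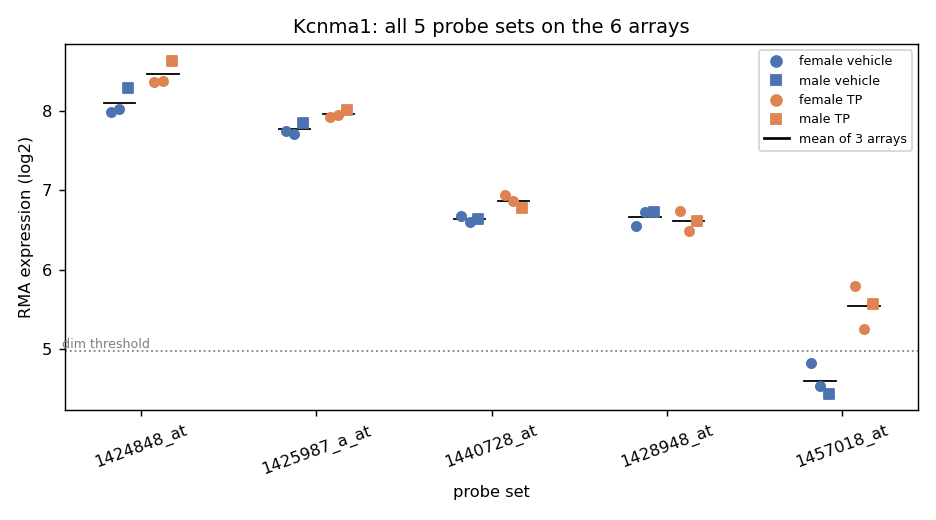
Log2 expression of the 5 Kcnma1 probe sets on each of the 6 arrays, TP and vehicle side by side, with the dim line drawn at 4.98. On 4 probe sets the 3 TP arrays lie above the 3 vehicle arrays, and on 1428948_at they overlap.

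The BK channel's auxiliary subunits had smaller differences, and none passed the test. Kcnmb4 differed by -0.07. Kcnmb2 differed by 0.13 on its brighter probe set and 0.01 on the other. Kcnmb1, known mainly from smooth muscle, was dim on both probe sets, which gave -0.23 and 0.14. Among BK gamma subunits, which bear no Kcn name, Lrrc26 was dim at a mean of 3.51. Lrrc26 read 3.64, 3.59 and 3.64 with TP (female, female, male) and 3.33, 3.43 and 3.43 with vehicle. The groups did not overlap, and the difference was 0.23 with an adjusted p of 0.286 in limma. Lrrc38, another gamma subunit at a mean of 5.04, differed the other way, by -0.18 (adjusted p = 0.429), and the dim Lrrc52 differed by 0.09 (adjusted p = 0.637).

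Kcnq1ot1 had 3 separated probe sets with higher TP values. Above the dim line Kcnd2 also had 2 separated and higher, at 0.12 and 0.12, and Kcnc1 had 2 separated and lower, at -0.10 and -0.20. Kcnq1ot1 is the long non-coding RNA made from within Kcnq1 in the antisense direction, on the paternal chromosome. This RNA is known for silencing imprinted neighbours. On 1457781_at it read 7.56, 7.71 and 7.60 with TP (female, female, male) and 7.33, 7.35 and 7.24 with vehicle. All 3 TP arrays lay above all 3 vehicle arrays. The difference was 0.31 (SE 0.07, fold 1.24, adjusted p = 0.238 in limma), with 0.29 in females and 0.36 in males.

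Of its 6 probe sets 4 were above the dim line, and all 4 differences were positive. The arrays also did not overlap on 1458161_at, with 7.07, 7.01 and 6.86 against 6.50, 6.80 and 6.69, a difference of 0.32 (adjusted p = 0.295). They did not overlap on 1442029_at either, with 7.03, 6.67 and 6.79 against 6.48, 6.64 and 6.53, a difference of 0.28 (adjusted p = 0.356). On 1441588_at they overlapped, with a difference of 0.14 (adjusted p = 0.470). The dim probe sets 1446255_at and 1459443_at gave -0.16 and -0.06. Averaged over its 6 probe sets Kcnq1ot1 differed by 0.14. Kcnq1, the host gene on the opposite strand, was dim with a mean of 4.91 and a difference of -0.09 (adjusted p = 0.828).

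**Figure D3:**
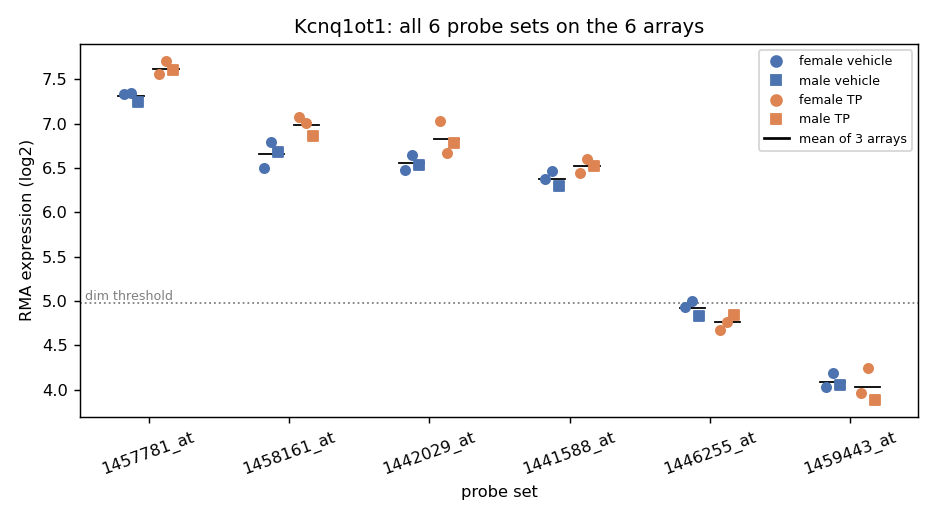
Log2 expression of the 6 Kcnq1ot1 probe sets on each of the 6 arrays, TP and vehicle side by side, with the dim line at 4.98. The 3 TP arrays lie above the 3 vehicle arrays on 1457781_at, 1458161_at and 1442029_at.

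Among the 65 genes above the dim line, TP and vehicle arrays did not overlap in 10. TP was higher in 3 (5.32% of all such genes) and lower in 7 (11.1% of all such genes). Counted over the 114 probe sets above that line, TP was higher without overlap in 11 (8.48% of all) and lower in 13 (9.15% of all). The third gene with higher TP values was Kcnj9 (GIRK3, a subunit of G protein-gated inward rectifiers). It read 6.82, 6.999 and 6.78 (female, female, male) against 6.66, 6.64 and 6.68, a difference of 0.21 (SE 0.08, fold 1.15, adjusted p = 0.362). Every TP array was higher, but the other Kcnj9 probe sets gave -0.06, -0.16 and, for a dim one, 0.07, and their average was 0.01.

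The gene with the largest difference among the 7 was Kcnj13 (Kir7.1, an epithelial inward rectifier abundant in choroid plexus). It read 6.96, 6.89 and 6.75 with TP (female, female, male) and 7.15, 7.06 and 7.18 with vehicle. No arrays overlapped, and the male TP array was the lowest. The difference was -0.26 (SE 0.08, fold 0.836, adjusted p = 0.294 in limma), with -0.18 in females alone. Of 9 choroid plexus marker genes 8 had lower values with TP, with a median of -0.09, none past adjusted p 0.05 and 2 at an unadjusted p under 0.05 (Aqp1, and F5, which was dim), where 9.79% of all genes were. The list's median level was 7.06 to 7.21 on the TP arrays and 7.203 to 7.29 on the vehicle arrays. Its part in the Kcnj13 value was not tested.

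The other genes with separated, lower TP values had small gaps. Kcne4, an auxiliary subunit of Kv channels, differed by -0.15 (adjusted p = 0.404), Kcna5 (Kv1.5) by -0.15 (adjusted p = 0.448) and Kcnk6, a tandem-pore channel, by -0.14 (adjusted p = 0.505). Kcnj10 read 8.71, 8.70 and 8.66 with TP and 8.81, 8.77 and 8.83 with vehicle, a difference of -0.11 (adjusted p = 0.512). Kcnc1 differed by -0.10 and Kcnc4 by -0.09, with adjusted p of 0.534 and 0.592. In Kcne4, Kcnk6 and Kcnc1 the groups were parted by less than 0.01. Leaving out the male arrays left all 7 lower, with Kcna5 at -0.08, and no alternative turned the sign of any of them. The 7 were named because their groups did not overlap, so leaving out arrays could not turn a sign. Without female vehicle replicate 1 Kcnk6 differed by -0.08, and without female TP replicate 1 Kcnc4 differed by -0.06.

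**Figure D4:**
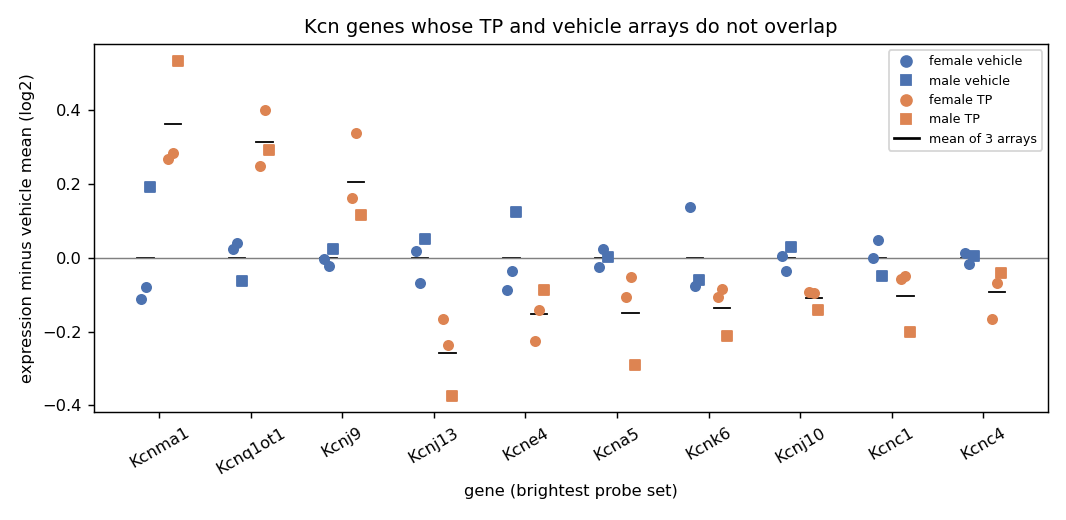
Log2 expression minus the gene's vehicle mean, on each of the 6 arrays. Shown are the 10 potassium channel genes above the dim line whose TP and vehicle arrays do not overlap. Kcnma1, Kcnq1ot1 and Kcnj9 have higher TP arrays, and the other 7 genes have lower ones.

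By class, the differences between TP and vehicle were spread around 0. Of 18 voltage-gated pore subunit genes above the dim line 7 had higher and 11 lower TP values, with a median of -0.03. The 7 modifier subunits split 2 to 5 (median -0.04, and 3 to 4 under a second quantile normalization), the 10 inward rectifiers 3 to 7 (median -0.07) and the 9 tandem-pore genes 4 to 5 (median -0.01). The 12 auxiliary subunits split 4 to 8 (median -0.06). The 7 genes of the calcium- and sodium-activated class split 4 to 3 (median 0.01). Kcnu1, higher at 0.08, was counted in this class though it is not itself a calcium- or sodium-activated channel. Over all 13185 genes above the dim line 5109 were higher and 8076 lower, with a median of -0.02. In females alone the splits were 9 to 9 for voltage-gated genes, 1 to 6 for modifiers and 3 to 7 for inward rectifiers. They were 6 to 3 for tandem-pore genes, 4 to 8 for auxiliary subunits and 4 to 3 for the calcium- and sodium-activated class. The Kcnc genes, whose fast Kv3 channels let neurons fire at high rates, were lower in 3 of 3 over the 6 arrays and in 2 of 3 in females, where Kcnc2 differed by 0.04. Over the 6 arrays, 6 of their 7 probe sets were lower, none past an adjusted p of 0.05 in limma.

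Probe sets of 1 gene often disagreed. Of 31 genes with at least 2 probe sets above the dim line, 17 had differences of 1 sign and 14 of both. The widest ranges were in Kcnma1 (-0.05 to 0.94), Kcnj9 (-0.16 to 0.21), Kcnq5 (-0.11 to 0.17), Kcna1 (-0.14 to 0.12), Kcna4 (-0.01 to 0.24) and Kcns2 (-0.04 to 0.20). Kcnd2 had 3 such probe sets at 0.09, 0.12 and 0.12, and Kcnip4, a Kv4 partner, had 3 at 0.05. Kcnj3, a GIRK subunit, was positive on all 4, from 0.05 to 0.13. None of these passed the test.

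Other ion transport genes gave no clearer picture. Of 9 sodium channel genes 6 were higher with TP (median 0.06), of 13 calcium channel genes 8 (median 0.01), of 2 HCN genes 0, and of 7 pump and cotransporter genes 1 (median -0.01). Of 20 potassium channel partners that carry no Kcn name 10 were higher and 10 lower, including Nedd4l at 0.20 (adjusted p = 0.375), a ubiquitin ligase, and Abcc8 at -0.23 (adjusted p = 0.331), the KATP channel's sulfonylurea receptor. None passed an adjusted p of 0.05 in limma, and 7 genes of these 5 lists had an unadjusted p under 0.05, where 9.79% of all genes did.

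Markers of cell types and brain regions were counted the same way. Neuron markers were above the dim line in 15 of 15 genes and split 7 higher to 8 lower (median -0.01), and 10 astrocyte markers split 4 to 6 with 1 at an unadjusted p under 0.05. Endothelium and pericyte markers split 1 to 9 (median -0.07), with Pecam1 at -0.31 (adjusted p = 0.282) and Flt1 at -0.20 (adjusted p = 0.319). Oligodendrocyte markers split 2 to 8 (median -0.08), with Mog at -0.36 (adjusted p = 0.238) and Mag at -0.29 (adjusted p = 0.332), and 6 to 4 in females alone. Hindbrain and spinal cord markers were lower in 15 of 18 (median -0.22), with 8 at an unadjusted p under 0.05 (9.79% of all genes) and median levels of 5.18 to 5.41 on the TP arrays and 5.45 to 5.49 on the vehicle arrays. In females alone they were lower in 16 of 18 (median -0.13). The part of these lists in the channel values was not tested.

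In females alone no member passed an adjusted p of 0.05, where 0.0111% of all probe sets did. At an unadjusted p under 0.05 there were 26 of 167, or 15.6% against 8.13% of all, with 10 higher (4% of all) and 16 lower (4.13% of all). Of these, 9 of the higher and 5 of the lower were above the dim line. Across the whole array 1132 of 1802 higher and 789 of 1861 lower were above it. With 2 arrays against 2, the groups did not overlap in 9 higher (14.4% of all) and 18 lower (24.8% of all) of the 65 genes, and in 20 higher (19.5% of all) and 28 lower (21.3% of all) of the 114 probe sets. Kcna4 (Kv1.4, an A-type channel) read 6.75 and 6.82 with TP and 6.33 and 6.57 with vehicle, a difference of 0.34 (adjusted p = 0.555). Kcns1, a modifier subunit, read 5.93 and 5.89 with TP and 6.31 and 6.24 with vehicle, a difference of -0.36 (SE 0.08, adjusted p = 0.525).

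The remaining genes named in females were no clearer. Kcna2 differed by 0.24, Kcnq5 by 0.19 and Kcnj9 by 0.26 on the higher side. Kcnab3, a Kv1 partner, differed by -0.36, Kcnj16 by -0.22, Kcnip3 by -0.13 and Kcnd1 by -0.13. Kcnab3's adjusted p was 0.546 and Kcnj16's was 0.581. Single arrays carried much of several values. Without female vehicle replicate 1 the differences of Kcna4, Kcna2 and Kcnq5 were 0.22, 0.15 and 0.05. Without female TP replicate 2 those of Kcnab3, Kcnj9 and Kcnd1 were -0.22, 0.17 and -0.06. Averaged over each gene's probe sets, Kcna4, Kcna2 and Kcnj9 differed by 0.13, 0.03 and 0.04.

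Some bone and cartilage markers, among them Ibsp, Dmp1 and Acp5, were higher on both female TP arrays than on both female vehicle arrays. In females 7 of 10 were higher (median 0.29) and 5 had an unadjusted p under 0.05 (5.77% of all genes). Ibsp, a bone matrix gene that was dim over the 6 arrays, rose by 1.64 (adjusted p = 0.048 in limma), while Dmp1 and Acp5 differed by 1.12 and 0.99. Acan, Alpl and Sp7 were lower in females. On the male arrays Ibsp read 3.49 with TP against 4.61 with vehicle, Dmp1 3.39 against 4.26 and Acp5 4.45 against 4.95. The part of these markers in the female channel values was not tested.

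Female and male differences come from separate arrays and could be set side by side. Of the 114 probe sets above the dim line 77 had the same sign in both (67.5%), against 64.7% of 27022 over the whole array. Across those potassium channel probe sets r was 0.57, against 0.41 over the whole array. A single far point, Kcnma1 1457018_at (0.85 in females, where the SD over all members was 0.16), can raise the potassium channel r. The value without it was not computed, so the 2 values of r are not compared further. These correlations are across probe sets, which are not independent, and the 1 male array of each treatment adds its own deviation to every point. The test of the difference between the sexes found 4 members at an unadjusted p under 0.05 (4.93% of all probe sets), 3 with a more positive difference in females (2.48% of all) and 1 with a more negative one (2.45% of all), and none past an adjusted p of 0.05 (0.0155% of all).

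The genes with the smallest p in that test had adjusted p of 1.00 in limma. Kcns1 differed by -0.36 in females and 0.09 in males. Kcnk4 (TRAAK, a mechanosensitive tandem-pore channel) differed by 0.12 and -0.25, and Kcnj16 by -0.22 and 0.03. Kcnj11, the KATP pore subunit, differed by -0.09 and 0.10. These differences between the sexes rest on 1 male array per treatment.

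**Figure D5:**
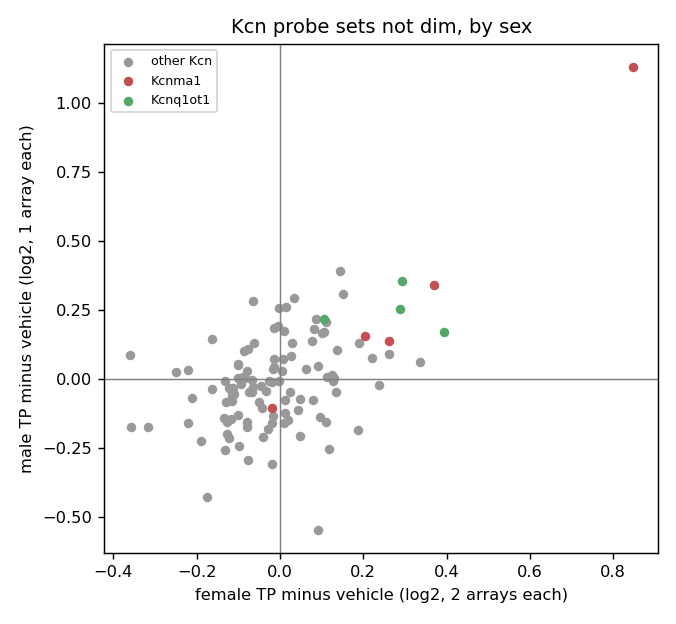
Difference between TP and vehicle (log2) in females, from 4 arrays, against that in males, from 2 arrays, for the 114 potassium channel probe sets above the dim line. Both differences are above 0 for 4 of the 5 Kcnma1 and all 4 plotted Kcnq1ot1 probe sets, and 77 of the 114 points lie in the quadrants where both signs match.

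Males were compared with females with treatment as a second term. No member passed an adjusted p of 0.05 in limma (0.0222% of all probe sets did), and 22 of 167 had an unadjusted p under 0.05, or 13.2% against 12.1% of all, 15 higher in males (6.36% of all) and 7 lower (5.72% of all). Of the 65 genes 4 were higher without overlap (4.43% of all) and 6 lower (19.6% of all), and of the 114 probe sets 5 (5.59% of all) and 8 (16.2% of all). Under a second quantile normalization the gene counts became 8 and 2, so the split by direction depends on the scaling.

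Among the named genes, Kcnd1 (Kv4.1) read 7.02 and 7.22 on the male TP and vehicle arrays, against 6.71 to 6.92 on the 4 female arrays, a difference of 0.28 (SE 0.07, adjusted p = 0.314 in limma). Kcnj4 (Kir2.3) read 5.67 and 5.93 against 5.38 to 5.64 (0.27, adjusted p = 0.325), and Kcnh1 (EAG1) read 7.30 and 7.34 against 7.02 to 7.14 (0.25, adjusted p = 0.321). Kcnt1, a sodium-activated channel, read 7.40 and 7.48 against 7.59 to 7.78 (-0.25, adjusted p = 0.321). Kcnj8 (Kir6.1, found in pericytes) read 6.92 and 6.98 against 7.09 to 7.31 (-0.22, adjusted p = 0.358). In these 5 genes both male arrays stood outside the range of the females, which was the rule for naming them. Kcnma1 overlapped between the sexes and differed by 0.27 (adjusted p = 0.305 in limma). No member had a lower adjusted p for sex, and the median over its 5 probe sets was 0.04. Kcnd1's other probe sets gave 0.06 and, for a dim one, -0.14, and averaged over its probe sets it differed by 0.07. Kcnt1 averaged over its probe sets differed by -0.12.

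Without the male TP array the differences were 0.31 for Kcnd1, 0.33 for Kcnj4, 0.29 for Kcnh1, -0.26 for Kcnt1 and -0.24 for Kcnj8, with adjusted p from 0.537 to 0.618. The endothelium and pericyte list split 3 to 7 between the sexes (median -0.05). Cerebellum markers were lower in males in 15 of 15 (median -0.24), with 9 at an unadjusted p under 0.05, where 11.5% of all genes were. Blood leukocyte markers were higher in 8 of 10 (median 0.24), with 5 at an unadjusted p under 0.05. The part of these lists in the channel values was not tested.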

How the data were processed

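RNA extracted with Trizol from whole brains was labelled with a 3' in vitro transcription kit and hybridised to 6 one-colour arrays, per the labels' protocols. The authors deposited log2 values from RMA, a method of background correction, quantile normalization and probe summary, per the submitters' processing notes, and its version was not given in the sources used here. RMA compresses low signals, so differences of dim probe sets tend to be understated. Probe sets were named through the platform annotation, where 932 carried several genes and 9160 none. All 84 member symbols were found in RefSeq.

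The log2 values of all 45037 probe sets that were not array controls were fitted in R 4.3.3 with limma 3.58.1 (moderated two-sided tests from eBayes, Benjamini-Hochberg over all of them). Treatment and sex entered additively over the 6 arrays. Females alone, and the difference between the sexes in a model of 4 groups, were fitted separately, and males alone had no test. The procedure was tested on simulated data. Named genes were those with the largest differences among brightest probe sets above the dim line with groups that did not overlap, those with the smallest p between the sexes, the brightest of each subfamily, those whose probe sets lay furthest apart, and a set list. Kcnh3 and the other genes named outside this rule were chosen after their values were seen. The members and lists were chosen with earlier results of these data known. The number of arrays limits the precision.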

Additional observations from a re-analysis of the deposited data

How the results depend on the processing

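Values are percentages of members. Shares over all probe sets under the alternative settings are not given here, so a change cannot be read as particular to potassium channels. Over 206 comparison summaries, 172 stayed close to the value reported (shares and counts within 1.5 times, medians within the spread between arrays). None of the 460 values for single named genes changed sign. Most of these genes were named because their groups did not overlap, so leaving out arrays could not turn their signs. For TP against vehicle over 6 arrays, 9.65% of the probe sets above the dim line were separated and higher, which became 4.62% with 1 probe set a gene, 3.28% when probe sets were averaged by gene and 17.5% in the female arrays alone, while 11.4% separated and lower became 24.6% there. With an intensity trend in limma 2 members passed an adjusted p of 0.05, both of Kcnma1, whose 1424848_at difference of 0.36 was unchanged. For females, averaging probe sets by gene gave 9.52% at an unadjusted p under 0.05 (15.6% reported) and 9.84% separated and higher (17.5% reported). For sex, 4.39% separated and higher became 8.77% under a second quantile normalization, 25.4% in vehicle arrays alone and 13.2% without the male TP array, and 7.02% separated and lower became 3.51%, 36.8% and 20.2%. Members at an unadjusted p under 0.05 were 13.2% for sex and 5.39% in vehicle arrays alone. For the difference between the sexes they were 2.40%, and 1.19% with 1 probe set a gene.

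Leaving out each female array in turn gave 11.98% to 19.2% at an unadjusted p under 0.05 over 6 arrays, 5.39% to 13.8% in females, 10.8% to 16.2% for sex and 2.40% to 5.39% for the difference between the sexes, with 0 past an adjusted p of 0.05 in limma in each. Separated shares, higher then lower, were 11.4% to 19.3% and 14.0% to 19.3% over 6 arrays, 26.3% to 36.0% and 32.5% to 45.6% in females, and 5.26% to 8.77% and 8.77% to 12.3% for sex. Fewer arrays separate more often by construction. Where a single array was left in a group, it was assumed to vary like the others. The cause of the other changes was not tested.

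The label sets original arrays against replica arrays. Across all probe sets, the original minus replica differences of the female TP pair and the female vehicle pair correlated at 0.11. With 2 pairs this cannot show whether the arrays shared a batch, for all genes or for some. With the label as a replicate block, 16.2% of members had an unadjusted p under 0.05 over 6 arrays, 15.0% in females, 8.38% for sex and 2.99% for the difference between the sexes, and 0 passed an adjusted p of 0.05.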

Other observations

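Of the 15 potassium channel probe sets with lower TP values at an unadjusted p under 0.05, 10 were dim, and 4 of these were a gene's brightest. Across the whole array 1468 of 2828 such probe sets were above the dim line. Kcnj5, a GIRK subunit known from the heart, read 4.74, 4.71 and 4.99 with TP (female, female, male) and 5.15, 4.97 and 5.25 with vehicle, a difference of -0.31 (SE 0.07, adjusted p = 0.252 in limma). The male TP array overlapped the lowest vehicle array. Kcnj14 (Kir2.4) read 3.76, 3.78 and 3.91 against 4.01, 3.97 and 4.19, with no overlap and a difference of -0.24 (adjusted p = 0.267). Kcnv2, a modifier subunit known from photoreceptors, differed by -0.31 (adjusted p = 0.330), and Kcne3 by -0.20 (adjusted p = 0.313). These genes were chosen after their values were seen.

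Kcnh3, a voltage-gated channel of forebrain neurons, was separated on 1 of its 4 probe sets. There, on 1445805_x_at, it read 6.45, 6.52 and 6.53 with TP and 6.73, 6.87 and 6.71 with vehicle, a difference of -0.27 (adjusted p = 0.279). Its brightest probe set overlapped and differed by -0.13 (adjusted p = 0.546). Probe sets with this suffix can read several transcripts.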
